A study of Mus musculus with 9 samples.

Results

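Open chromatin was examined at 10 Sox loci, those of Sox2, Sox4, Sox5, Sox6, Sox7, Sox9, Sox10, Sox11, Sox17 and Sox18, out of 22225 protein-coding genes with a window of the same kind. A locus was the gene body of the mm9 annotation with 50 kb on each side, and an ATAC-seq peak belonged to it when the midpoint of the peak lay in that window. Peaks that reached to within 1 kb of an annotated transcription start site (TSS) were promoter peaks, and all others were distal peaks. The choice of loci used no measured value.

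SOX proteins are transcription factors that bind the minor groove of DNA through an HMG box and bend it. They fall into groups by similarity. Sox2 belongs to the SoxB group of stem and neural progenitor factors, Sox4 and Sox11 to the SoxC group of progenitors and developing outflow tract, and Sox5 and Sox6 to the SoxD group, which lack a transactivation domain and act with Sox9 in cartilage. Sox9 and Sox10 are SoxE factors, Sox9 of chondrogenic and neural crest cells and heart valve precursors, Sox10 of neural crest and glia. Sox7, Sox17 and Sox18 are SoxF factors of endothelium, and Sox17 also of definitive endoderm.

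The study asked how loss of TBX1, a T-box factor of the cardiopharyngeal mesoderm, the progenitor field of heart and branchiomeric muscle, alters chromatin. ATAC-seq, in which a transposase cuts accessible DNA, was performed on E9.5 Swiss Webster embryos, pooled for each library, from which live cells with GFP were sorted. Each of the 3 groups had 3 libraries. All embryos carried 1 Rosa26-GFPflox reporter allele, which Cre recombinase switches on and which marks cells for life. Mesp1-Cre Ctrl embryos (Mesp1Cre;Rosa26-GFPflox/+) marked early mesoderm. Tbx1-Cre Ctrl embryos (Tbx1Cre;Rosa26-GFPflox/+) marked the Tbx1 lineage, which spans pharyngeal mesoderm, endoderm and ectoderm, and Tbx1-Cre cKO embryos (Tbx1Cre/flox;Rosa26-GFPflox/+) lost the floxed Tbx1 allele in the same lineage. Since Cre is expressed from the Tbx1 locus, the Tbx1-Cre controls were themselves heterozygous for Tbx1. The tissue label names pharyngeal apparatus and heart for the Mesp1-Cre group and adds the back for both Tbx1-Cre groups, while the methods describe pharyngeal tissue without the heart. A difference from the Mesp1-Cre group therefore cannot be told apart from this difference in dissection.

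The lists differed in length before any locus was considered. They held 25485 to 42650 peaks in Mesp1-Cre Ctrl, 43298 to 49490 in Tbx1-Cre Ctrl and 19772 to 29251 in Tbx1-Cre cKO, and distal peaks made up 52.8 ± 7.66%, 63.9 ± 1.00% and 42.6 ± 6.79% of them (SD, n = 3). The mean cKO list thus held 52.3% of the peaks and 35.5% of the distal peaks of the mean Tbx1-Cre Ctrl list. Read depth is unknown, so a peak that was not called is not a measurement of closed chromatin. The longest Mesp1-Cre Ctrl list, that of library 1, held 42650 peaks. Its length is not among the published list lengths, and a shorter published Mesp1-Cre list is absent here. All Tbx1-Cre lists had their published lengths. The reason for this mismatch is unknown. The number of Sox loci lower in Mesp1-Cre Ctrl depended on the longest list, as given below. At Tbx1, a promoter peak was called in all 3 Tbx1-Cre Ctrl libraries, in 2 Mesp1-Cre Ctrl libraries and in no cKO library. Among markers of cardiopharyngeal mesoderm, 5 to 6 of 8 genes had a promoter peak in Tbx1-Cre Ctrl libraries, 2 to 5 in cKO and 4 to 6 in Mesp1-Cre Ctrl. Isl1 had one in all 9 libraries, Nkx2-5 in Mesp1-Cre Ctrl 3 alone and Tbx5 in none. The counts in Tbx1-Cre Ctrl, cKO and Mesp1-Cre Ctrl were 2 to 3, 1 to 2 and 2 to 3 of 6 endothelial genes, 1 to 4, 1 and 1 to 4 of 6 epithelial genes, 3 to 4, 2 and 2 to 3 of 5 neural crest and glial genes, and 5, 3 and 4 of 5 neural progenitor genes. Pecam1, Cdh5, Tie1 and Cldn6 had a promoter peak in no library. Their part in the results at the Sox loci was not tested.

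Distal peaks at the Sox loci were fewer in every Tbx1-Cre cKO library than in any Tbx1-Cre Ctrl library when summed over the windows. The 10 windows together held 66, 61 and 66 distal peaks in Tbx1-Cre Ctrl libraries 1 to 3, 34, 19 and 14 in the cKO libraries, and 42, 20 and 28 in the Mesp1-Cre Ctrl libraries. At Sox5, Sox6, Sox9 and Sox18 every cKO library held fewer distal peaks than every Tbx1-Cre Ctrl library. These were 4 of the 9 Sox loci with a distal peak in either Tbx1-Cre group, and the same held for 25.6% of the 17727 genes tested. That share is not matched for window length or peak number. The median Tbx1-Cre Ctrl mean was 3.67 distal peaks at the 9 loci and 2 over all genes. With windows of 50 kb on each side of the TSS, Sox6 no longer separated (p = 0.3, exact permutation test). Sox18 no longer separated with a flank of 10 kb or with a promoter limit of 2.5 kb (p = 0.3 in each, exact permutation test). Its separation also counts 2 peaks of Tbx1-Cre Ctrl 1 that lie in 1 merged region. No Sox locus was higher in every cKO library, against 0.141% of genes. Per 10000 distal peaks of a list, the summed Sox counts were 20.9, 22.4 and 21.6 in Tbx1-Cre Ctrl and 23.4, 18.9 and 19.5 in cKO, so that the groups overlapped. On this scale the Mesp1-Cre Ctrl libraries, at 16.1, 17.0 and 18.0, lay below both Tbx1-Cre groups. Sox5 was the only locus at which every Mesp1-Cre Ctrl library was then below every Tbx1-Cre Ctrl library. At Sox7, Sox9, Sox11 and Sox18 the Mesp1-Cre Ctrl mean was instead the higher. No background over all genes was formed for the summed count. A smaller share of cells of 1 type and less open chromatin per cell cannot be told apart in such bulk libraries.

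**Figure D1:**
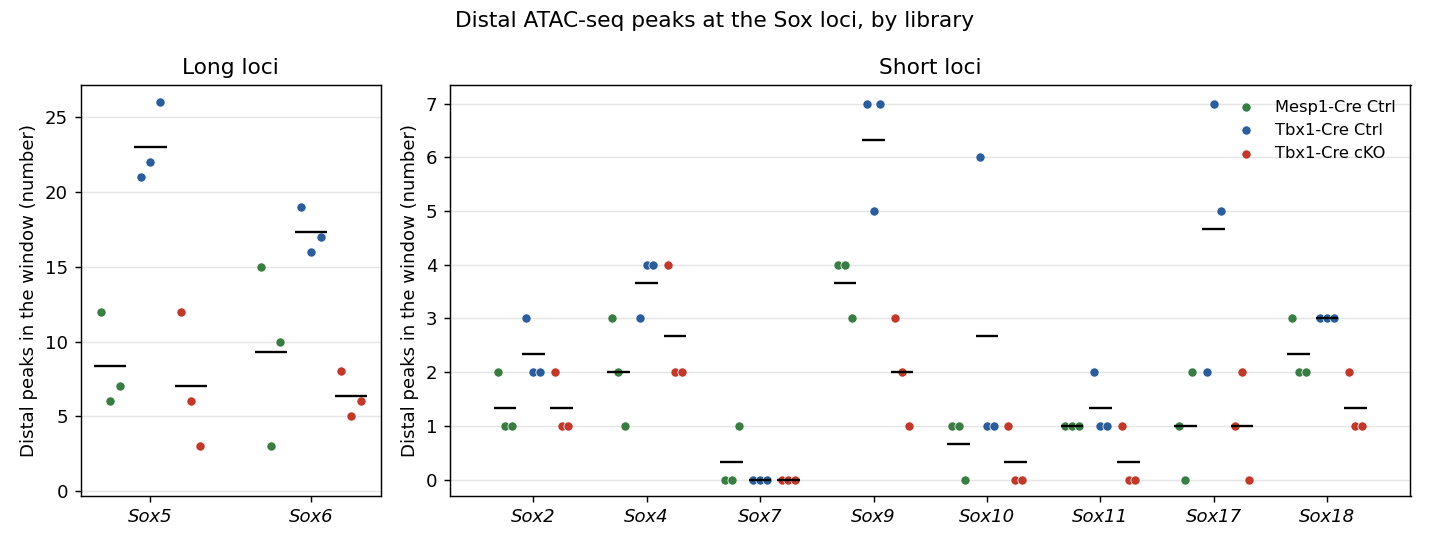
Number of distal ATAC-seq peaks in the window of each Sox gene (vertical axis), for the long loci Sox5 and Sox6 on the left and the 8 short loci on the right; each point is a library, libraries 1 to 3 run from left to right, colours mark the groups, and bars are means. The cKO points lie below all Tbx1-Cre Ctrl points at Sox5, Sox6, Sox9 and Sox18, and at Sox6 and Sox18 the order of the means turns when counts are taken relative to the distal peaks of each list.

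The exact two-sided permutation test of 3 against 3 libraries has 20 relabellings and cannot go below p = 0.1, the value it gave at Sox5, Sox6, Sox9 and Sox18. After Benjamini-Hochberg adjustment over all genes tested, the smallest value was 0.389 in this exact test, so no locus passed. The median difference over the 9 loci was -2.33 distal peaks, against -1 over all genes. The median share of the Tbx1-Cre Ctrl mean that was left in cKO was 31.6% over the 9 loci and 33.3% over the 17509 genes for which it could be formed. One library, Tbx1-Cre cKO 1, had the longest cKO list, and without it 8 Sox loci in place of 4 were lower in every cKO library. The share of all genes under this change was not formed, so the 8 cannot be set against a background.

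At Sox9, which drives cartilage and valve precursor programmes, 7, 5 and 7 distal peaks were called in Tbx1-Cre Ctrl libraries 1 to 3, 3, 2 and 1 in cKO, and 4, 4 and 3 in Mesp1-Cre Ctrl. All 6 libraries of the other groups therefore lay below the 3 Tbx1-Cre controls. The cKO mean was 2.00 ± 1.00 against 6.33 ± 1.15 (SD, n = 3), a difference of -4.33 with p = 0.1 in the exact permutation test. Sox9 had the highest density of distal peaks among the 10 windows in Tbx1-Cre Ctrl, with 6.0 ± 1.09 per 100 kb, although its range overlapped that of Sox17. The study reported lower Sox9 RNA in progenitor cells without Tbx1, from single-cell RNA-seq. It also listed a differentially accessible region upstream of Sox9 that overlapped a TBX1 ChIP-seq peak. The accessibility came from these same libraries, so the lower count here is not independent evidence. The near site described next lies downstream, on the other side of the gene.

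The position of these peaks also differed between groups. The nearest distal peak lay 6.14, 6.16 and 6.02 kb from the TSS in the Tbx1-Cre Ctrl libraries, 28.7, 36.6 and 45.0 kb away in cKO, and 29.3, 29.1 and 28.6 kb away in Mesp1-Cre Ctrl. The near site, intergenic and just past the 3′ end of the gene at chr11:112649385-112649866, covered 275, 334 and 346 bp in the Tbx1-Cre Ctrl lists and held no peak in any other library. The closest cKO peak was 5525 bp from it. By contrast, a region 44.9 kb downstream of the TSS, in an intron of 4933434M16Rik, was held by every Tbx1-Cre library, with 1060, 918 and 919 bp in Ctrl and 966, 756 and 869 bp in cKO, and by Mesp1-Cre Ctrl 1 and 2 with 722 and 471 bp. Regions 29.1 and 36.4 kb downstream were called in all 3 Tbx1-Cre Ctrl libraries and each in 1 cKO library. Upstream, at -45.0 kb in an intron of BC006965, peaks of 518, 400 and 288 bp were called in Mesp1-Cre Ctrl and of 604 and 489 bp in Tbx1-Cre Ctrl 1 and 3, and none in cKO. The other upstream regions in the map of the short loci were each called in a single Tbx1-Cre Ctrl library.

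The part of the near Sox9 site that all 3 Tbx1-Cre Ctrl peaks share is shown because no cKO or Mesp1-Cre library has a peak there. It is read 5′ to 3′ on the plus strand of mm9 at chr11:112649544-112649730, the strand on which Sox9 is transcribed, and capitals mark a match to a SOX core.
Sox9 near site: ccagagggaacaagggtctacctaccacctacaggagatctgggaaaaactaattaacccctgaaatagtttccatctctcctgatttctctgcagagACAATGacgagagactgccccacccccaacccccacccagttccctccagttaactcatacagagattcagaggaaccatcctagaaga
The SOX core letters were ACAAAG and ACAATG and the T-box core letters AGGTGT, each searched on both strands. This window holds 1 SOX match and no T-box match. At the same length, 23.4% of all distal regions hold a SOX match and 7.85% a T-box match, so a match is a description of the letters and no more.

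**Figure D2:**
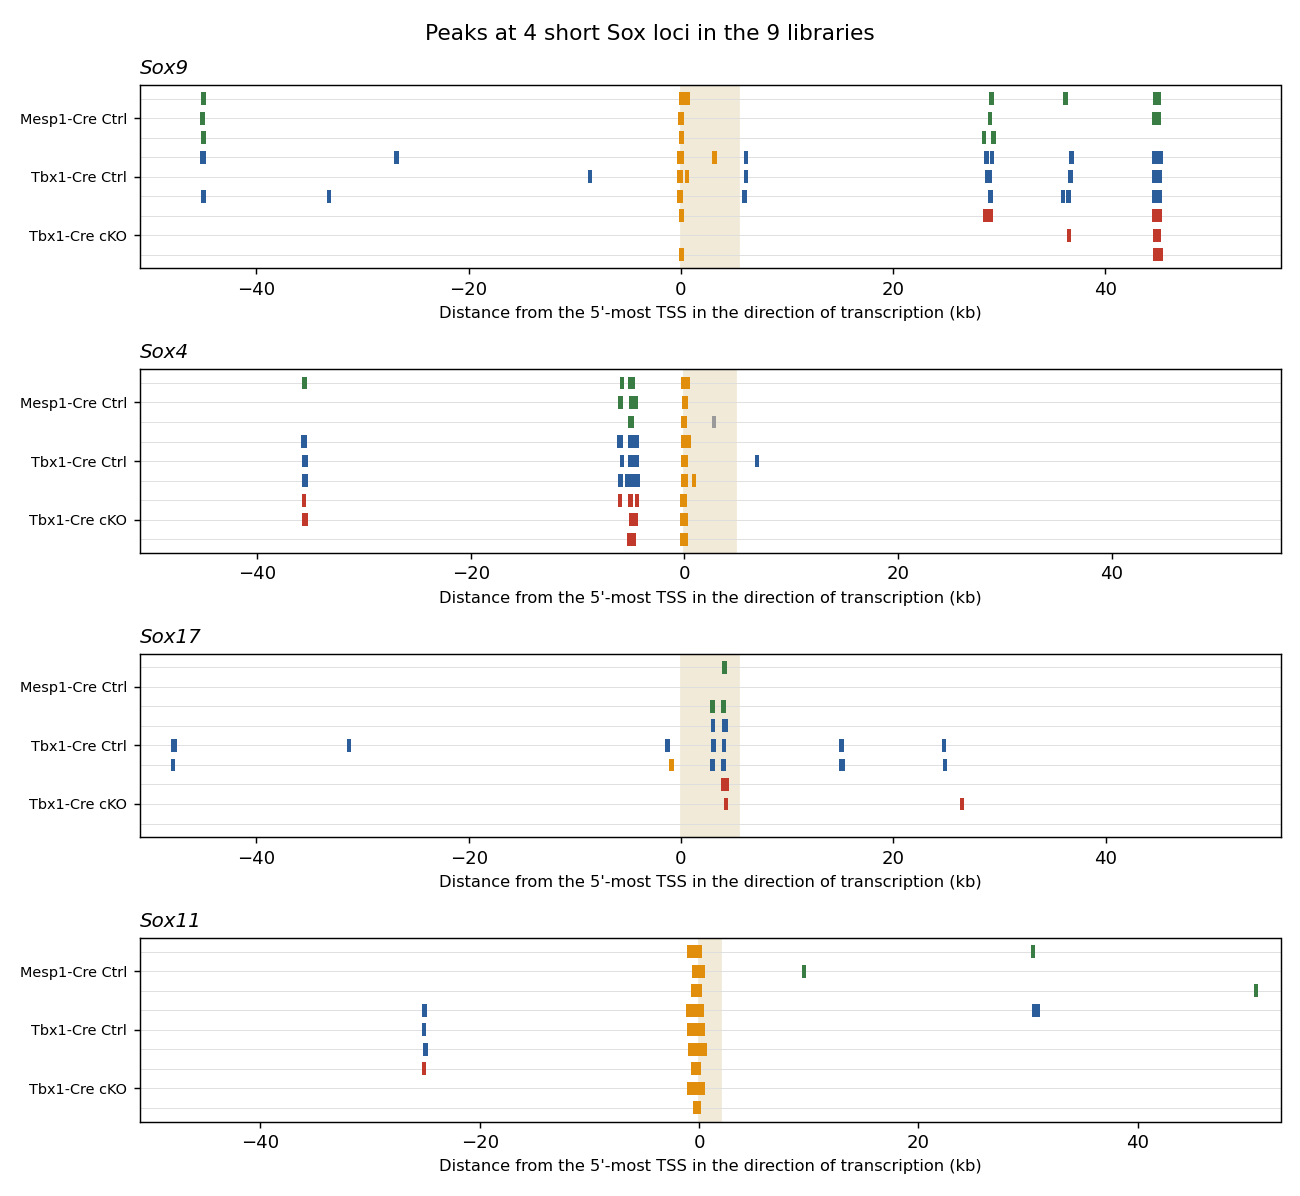
Peaks at Sox9, Sox4, Sox17 and Sox11 by distance from the TSS in kb (horizontal axis), with 1 row per library, libraries 1 to 3 of each group from top to bottom; shading marks the gene body, orange a peak at a promoter of the gene itself, grey a peak at the promoter of another gene, and green, blue and red the distal peaks of the 3 groups, with narrow peaks widened so that they can be seen. At Sox9 the site 6.09 kb from the TSS appears in the Tbx1-Cre Ctrl rows alone, whereas the Sox4 site at -4.94 kb appears in all 9 rows.

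Sox10, the other SoxE gene, had no peak at its own promoter in any of the 9 libraries. Its distal counts were 6, 1 and 1 in Tbx1-Cre Ctrl, 1, 0 and 0 in cKO, and 1, 1 and 0 in Mesp1-Cre Ctrl, and the groups overlapped. The difference between cKO and Tbx1-Cre Ctrl was -2.33 (p = 0.3, exact permutation test), and without Tbx1-Cre Ctrl 1, which alone supplied 5 of the 6 distal regions, it was -0.667. The remaining region, 15.6 kb into the window past the TSS in an intron of Polr2f, was called in all 3 Tbx1-Cre Ctrl libraries, in cKO 1 and in Mesp1-Cre Ctrl 1 and 2. The promoters of its neighbours Micall1 and Polr2f had peaks in all 6 control libraries and in 2 and 3 cKO libraries.

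The SoxD genes carried most of the distal regions of the family. Sox5 spans 953553 bp and Sox6 567401 bp, and together they held 64 of the 102 distal regions found when the peaks of all 9 lists were merged. Of these 64, 59 lay in an intron of the gene itself. Sox5 had 21, 22 and 26 distal peaks in Tbx1-Cre Ctrl, 12, 6 and 3 in cKO, and 12, 6 and 7 in Mesp1-Cre Ctrl. The cKO mean was 7 ± 4.58 against 23.0 ± 2.65 (SD, n = 3), so that 30.4% was left, with a difference of -16 (p = 0.1, exact permutation test). Sox6 had 19, 16 and 17 in Tbx1-Cre Ctrl, 8, 5 and 6 in cKO, and 15, 3 and 10 in Mesp1-Cre Ctrl. Its cKO mean was 6.33 ± 1.53 against 17.3 ± 1.53, a difference of -11 with 36.5% left (p = 0.1, exact permutation test), yet relative to the distal peaks of each list this difference turned to 0.946. Per 100 kb of window, Sox5 and Sox6 had 2.18 ± 0.251 and 2.60 ± 0.229 distal peaks in Tbx1-Cre Ctrl, near the density of the short loci Sox2 (2.28 ± 0.564) and Sox18 (2.95, the same in all 3). Within 50 kb on each side of the 5′-most TSS, a much shorter window, the cKO differences were -3 at Sox5 and -1 at Sox6. Sox5 has 12 annotated TSS and Sox6 has 5, so these values do not place the differences far from every TSS.

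**Figure D3:**
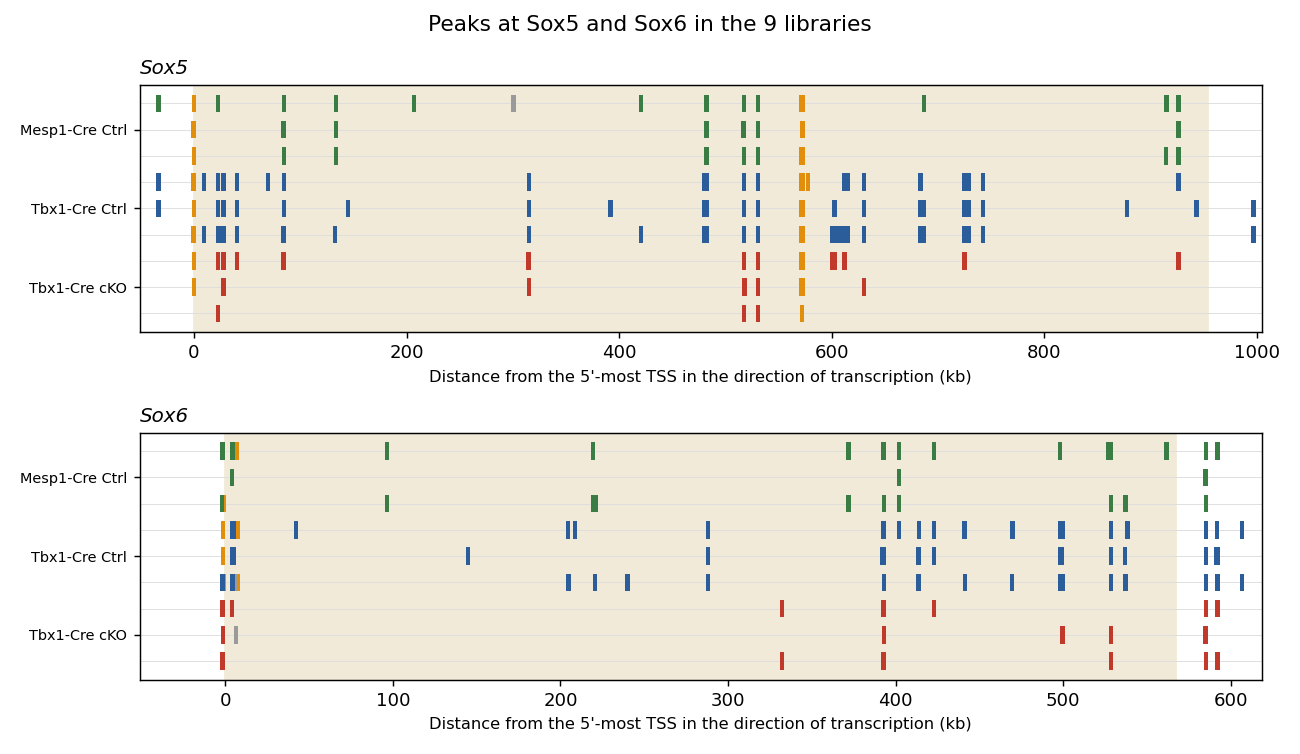
Peaks at Sox5 and Sox6 by distance from the 5′-most TSS in kb (horizontal axis), with 1 row per library, libraries 1 to 3 of each group from top to bottom, the gene body shaded, own-promoter peaks in orange, peaks at other promoters in grey and narrow peaks widened so that they can be seen. Distal peaks lie along both gene bodies in the Tbx1-Cre Ctrl rows and are sparser in cKO, while the Sox5 sites at 517 and 531 kb and the Sox6 site at 585 kb carry a peak in every row.

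At Sox5, 14 distal regions were held by all 3 Tbx1-Cre Ctrl libraries, of which 2 had a peak in every cKO library, 7 in some and 5 in none. The widest of the last kind lay in an intron at chr6:143987891-143988675, with 487, 379 and 785 bp in Tbx1-Cre Ctrl, no peak in Mesp1-Cre Ctrl, and the closest cKO peak 16823 bp away. Another, at chr6:144046677-144047202, with 504, 489 and 508 bp, was also absent from the Mesp1-Cre lists. The region chr6:144247758-144248531 differed in that all 3 Mesp1-Cre Ctrl libraries held it too, with 577, 237 and 344 bp beside 702, 474 and 774 bp in Tbx1-Cre Ctrl. Opposite cases were the intronic sites chr6:144199244-144200250 and chr6:144212602-144213632, which had peaks in all 9 libraries. The first of these measured 998, 997 and 981 bp in Tbx1-Cre Ctrl, 662, 644 and 619 bp in cKO and 718, 682 and 534 bp in Mesp1-Cre Ctrl, so that it was widest in the Tbx1-Cre controls even where the peak remained. The intronic region chr6:144596458-144597031 had peaks of 349, 229 and 574 bp in the Mesp1-Cre Ctrl libraries and none in any Tbx1-Cre library. At no Sox locus was a distal region found that every cKO library held and every Tbx1-Cre Ctrl library lacked.

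At Sox6, 9 distal regions were held by all 3 Tbx1-Cre Ctrl libraries, 2 of them by every cKO library, 4 by some and 3 by none. The widest of the 3, in an intron at chr7:122767884-122769207, covered 1149, 890 and 885 bp in Tbx1-Cre Ctrl, and no other library had a peak there. The closest cKO peak was 8295 bp away. Another, at chr7:122893963-122894599, with 529, 637 and 215 bp, was likewise found in no cKO or Mesp1-Cre list, and the one at chr7:122683832-122684579, with 383, 278 and 457 bp, was shared with Mesp1-Cre Ctrl 1 and had a cKO peak 904 bp from it. Downstream of the gene, the intergenic site chr7:122596674-122597503 had a peak in all 9 libraries, with 829, 741 and 709 bp in Tbx1-Cre Ctrl, 682, 209 and 374 bp in cKO and 708, 338 and 456 bp in Mesp1-Cre Ctrl.

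The widest SoxD site of each kind is shown so that a site that lacked a cKO peak can be read beside one that kept it. All are on the plus strand of mm9, opposite to the transcription of Sox5 and Sox6, and capitals mark SOX and T-box cores as above, a core on the minus strand appearing as its reverse complement.
Sox5 without a cKO peak, chr6:143988064-143988363: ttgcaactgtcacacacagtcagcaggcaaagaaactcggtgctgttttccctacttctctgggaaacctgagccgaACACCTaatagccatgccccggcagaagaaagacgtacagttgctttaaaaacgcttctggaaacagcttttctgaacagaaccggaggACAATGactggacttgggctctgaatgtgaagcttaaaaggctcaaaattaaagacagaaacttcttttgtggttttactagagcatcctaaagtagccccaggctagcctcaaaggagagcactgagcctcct
Sox6 without a cKO peak, chr7:122768528-122768827: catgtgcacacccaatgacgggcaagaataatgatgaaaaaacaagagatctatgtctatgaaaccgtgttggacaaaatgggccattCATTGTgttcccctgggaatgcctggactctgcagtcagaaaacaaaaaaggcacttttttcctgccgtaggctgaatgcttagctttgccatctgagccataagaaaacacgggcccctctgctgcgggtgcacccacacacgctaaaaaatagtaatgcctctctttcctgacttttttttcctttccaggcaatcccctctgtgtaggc
Sox5 in all 9 libraries, chr6:144199708-144200007: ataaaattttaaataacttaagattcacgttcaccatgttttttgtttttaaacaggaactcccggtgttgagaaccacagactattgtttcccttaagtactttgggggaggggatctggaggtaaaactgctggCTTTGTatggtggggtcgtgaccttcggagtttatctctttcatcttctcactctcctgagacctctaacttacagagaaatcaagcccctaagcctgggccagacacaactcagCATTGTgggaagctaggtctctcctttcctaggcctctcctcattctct
Sox6 in all 9 libraries, chr7:122597188-122597334: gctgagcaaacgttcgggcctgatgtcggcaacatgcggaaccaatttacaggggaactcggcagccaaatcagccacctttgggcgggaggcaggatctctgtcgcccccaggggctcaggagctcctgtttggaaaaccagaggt
The Sox5 site without a cKO peak holds 1 T-box match, ACACCT, and 1 SOX match, ACAATG. The Sox6 site without a cKO peak holds 1 SOX match, and the Sox5 site of all 9 libraries 2. In 300-bp windows of all distal regions, 12.4% hold a T-box and 34.8% a SOX match. At 147 bp, the length of the Sox6 site of all 9 libraries, which holds neither, these shares are 6.11% and 18.8%.

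Over the 102 distal regions of the Sox loci, 300-bp windows held a T-box match in 12, or 11.8%, and a SOX match in 41, or 40.2%. Among the 10 regions with a peak in every Tbx1-Cre Ctrl and no cKO library, 2 held a T-box and 5 a SOX match, and among the 8 with a peak in every Tbx1-Cre library 1 and 3 did. Over all distal regions, those of the first kind held these matches in 10.1% and 35.8%, and those of the second in 9.97% and 32.1%.

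Of the SoxC genes, Sox4 had 3, 4 and 4 distal peaks in Tbx1-Cre Ctrl, 4, 2 and 2 in cKO, and 3, 2 and 1 in Mesp1-Cre Ctrl, so that the groups overlapped. The difference of -1 left 72.7% of the Tbx1-Cre Ctrl mean (p = 0.4, exact permutation test). It was -1.67 without cKO 1, the cKO library with 4 peaks. Relative to the distal peaks of each list the sign turned, with every cKO library above every Tbx1-Cre Ctrl library. That order counts split peaks singly, as given below. The intergenic region 4.94 kb upstream of Sox4, chr13:29049868-29051177, was called in all 9 libraries, with 1003, 979 and 1217 bp in Tbx1-Cre Ctrl, 587, 827 and 662 bp in cKO and 642, 893 and 637 bp in Mesp1-Cre Ctrl. Peaks thus covered more of it in each Tbx1-Cre Ctrl library than in any other library. In cKO 3 both distal peaks of the window, of 314 and 348 bp, lay in this 1 region, and cKO 1 and Tbx1-Cre Ctrl 3 also had 2 peaks there. A single distal peak in cKO 3, as at Sox9, makes 1.40 of every 10000, below the 1.47 of Sox4 in Tbx1-Cre Ctrl 2. Counted by region, the groups therefore overlapped on that scale. Regions at -6.0 and -35.6 kb were held by all 3 Tbx1-Cre Ctrl libraries and by 1 and 2 cKO libraries. The stretch of the -4.94 kb region that peaks of all 9 libraries share is chr13:29050621-29050738. It is read on the plus strand of mm9, opposite to the transcription of Sox4. It is shown as the site held by every library that lies nearest to the TSS of its Sox gene.
Sox4 upstream site: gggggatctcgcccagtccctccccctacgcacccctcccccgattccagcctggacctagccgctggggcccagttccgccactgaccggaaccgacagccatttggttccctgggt
It is GC-rich, at 68.6%, against 49.2% for the near Sox9 site and 46.7% for both SoxD sites without a cKO peak, and holds neither core, which at 118 bp occur in 4.97% (T-box) and 15.2% (SOX) of distal regions.

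Sox11 had the widest single promoter region of the family and few distal ones. Its own promoter covered 1698, 1598 and 1534 bp in Tbx1-Cre Ctrl, 911, 1633 and 801 bp in cKO and 1323, 1164 and 999 bp in Mesp1-Cre Ctrl. The second cKO library alone lay within the Tbx1-Cre Ctrl range. Distal peaks numbered 2, 1 and 1, then 1, 0 and 0, then 1, 1 and 1 in the same order, with a difference of -1 in cKO (p = 0.3, exact permutation test). A region 24.9 kb upstream was found in all 3 Tbx1-Cre Ctrl libraries and in cKO 1.

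The SoxF genes, which are known from endothelium, had almost no promoter peaks. At Sox7 the only peaks of the whole window were 1 of 200 bp at the promoter in Tbx1-Cre Ctrl 3 and 1 distal peak of 220 bp, in an intron of Pinx1, in Mesp1-Cre Ctrl 3. At Sox17 a promoter peak of 227 bp was called in Tbx1-Cre Ctrl 3 alone. Its distal peaks numbered 2, 7 and 5 in Tbx1-Cre Ctrl, 1, 2 and 0 in cKO, and 1, 0 and 2 in Mesp1-Cre Ctrl, and the lowest control overlapped both other groups. Both comparisons gave -3.67 (p = 0.2, exact permutation test). Of the regions inside Sox17, the one at chr1:4483229-4483786, 2.99 kb from the TSS in a UTR, had peaks of 336, 368 and 464 bp in Tbx1-Cre Ctrl and of 374 bp in Mesp1-Cre Ctrl 3, and none in cKO. Its neighbour at 4.12 kb, in an exon, had 603, 299 and 404 bp in Tbx1-Cre Ctrl and 684 and 200 bp in cKO 1 and 2. In Mesp1-Cre Ctrl 1 and 3 this neighbour had 292 and 458 bp. The closest cKO peak was only 537 bp from the first region. Regions at 15.1, 24.8 and -47.8 kb were called in Tbx1-Cre Ctrl 2 and 3 but not in Tbx1-Cre Ctrl 1.

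Sox18 held 3 distal peaks in each Tbx1-Cre Ctrl library, 2, 1 and 1 in cKO, and 3, 2 and 2 in Mesp1-Cre Ctrl. In number of peaks, the cKO libraries did not overlap the Tbx1-Cre controls, with a difference of -1.67 and 44.4% left (p = 0.1, exact permutation test). Relative to the distal peaks of each list, however, the difference was 0.495. A region 12.0 kb downstream, chr2:181393988-181394779, was called in all 9 libraries, although no stretch was common to all of them. In Tbx1-Cre Ctrl 1 it held 2 of the 3 distal peaks, of 209 and 295 bp. Counted by region, Tbx1-Cre Ctrl 1 and cKO 1 thus each held 2, this one and the next, and the groups overlapped. A region at -4.08 kb had a peak in all 6 control libraries and in cKO 1, with 202, 286 and 418 bp in Tbx1-Cre Ctrl, 397, 254 and 227 bp in Mesp1-Cre Ctrl and 207 bp in cKO 1. The neighbouring promoter of Rgs19 had a peak in all 9 libraries.

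Sox2 had 3, 2 and 2 distal peaks in Tbx1-Cre Ctrl, 2, 1 and 1 in cKO and 2, 1 and 1 in Mesp1-Cre Ctrl, a difference of -1 in both comparisons (p = 0.3, exact permutation test). Relative to the distal peaks of each list, however, all cKO libraries lay above all Tbx1-Cre Ctrl libraries. A region 29.0 kb downstream, in an exon of the non-coding gene Sox2ot, was called in all 6 Tbx1-Cre libraries, with 694, 575 and 584 bp in Ctrl and 513, 420 and 580 bp in cKO. A region at 42.3 kb had peaks in all 3 Tbx1-Cre Ctrl libraries and in cKO 1.

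The genes differed in how many libraries had a peak at their own promoter. Sox4, Sox5 and Sox11 had an own-promoter peak in all 9 libraries and Sox9 in 8, the exception being cKO 2. Own-promoter peaks covered 898, 943 and 625 bp at Sox9 in Tbx1-Cre Ctrl, 514, 0 and 326 bp in cKO and 842, 583 and 328 bp in Mesp1-Cre Ctrl, and every cKO value was below every Tbx1-Cre Ctrl value. The same held at Sox4 and Sox6, hence at 3 of the 9 Sox genes with such a peak in a Tbx1-Cre library, against 41.1% of the 14656 genes tested, and no Sox promoter was wider in every cKO library, against 0.0819%. At Sox4 they covered 912, 707 and 910 bp, 633, 493 and 494 bp, and 903, 543 and 616 bp in the same order. Sox2 had 1025, 477 and 1247 bp in Tbx1-Cre Ctrl but 1005, 0 and 0 bp in cKO, so that cKO 1 lay within the control range while the other two had no peak. Sox6 had own-promoter peaks of 1193, 961 and 668 bp in Tbx1-Cre Ctrl and none in cKO, but the absence rests on the 1-kb limit. Merged over libraries, 1 region centred 1.39 kb upstream of the TSS had 987, 961 and 905 bp in Tbx1-Cre Ctrl and 694, 397 and 247 bp in cKO, and the cKO peaks, 1.42 to 1.57 kb upstream by their midpoints, were counted as distal. With a limit of 2.5 kb the own-promoter peaks of Sox6 covered 1575, 961 and 1401 bp in Tbx1-Cre Ctrl and 694, 636 and 247 bp in cKO, still without overlap. The exact permutation test gave p = 0.1 at Sox4, Sox6 and Sox9, and 0.243 after adjustment over all genes. Leaving out Tbx1-Cre Ctrl 2 or cKO 1 raised the 3 promoters to 5. Against Tbx1-Cre Ctrl, the promoters of Sox6 and Sox11 covered fewer bp in every Mesp1-Cre Ctrl library, against 18.3% of genes, and none more, against 0.568%, and leaving out Tbx1-Cre Ctrl 2 or Mesp1-Cre Ctrl 1 raised these 2 to 4. Shares over all genes were not formed for these leave-out counts. Sox18 had a promoter peak in 2 Tbx1-Cre Ctrl libraries and in 1 Mesp1-Cre Ctrl library. Counted per library, 6, 7 and 9 of the 10 Sox genes had an own-promoter peak in Tbx1-Cre Ctrl, 5, 3 and 4 in cKO and 6, 5 and 6 in Mesp1-Cre Ctrl.

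Seen by region, 38 of the 102 distal regions at the Sox loci had a peak in all 3 Tbx1-Cre Ctrl libraries. Of these 38, 10 had no peak in any cKO library, or 26.3%, and among all distal regions with a peak in all 3 Tbx1-Cre Ctrl libraries the share was 28.0%. The share at the Sox loci was thus near the background. A further 20 had a peak in 1 or 2 cKO libraries and 8 in all 3. The 10 were 5 at Sox5, 3 at Sox6 and 1 each at Sox9 and Sox17, and 8 of them were intronic in Sox5 or Sox6. Without cKO 1 the 10 became 20, without Tbx1-Cre Ctrl 1 they became 16, and without Tbx1-Cre Ctrl 2 they became 17. The matching shares over all distal regions were not formed. Of the 102, 35 were called in a single library and 13 in no Tbx1-Cre Ctrl library.

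**Figure D4:**
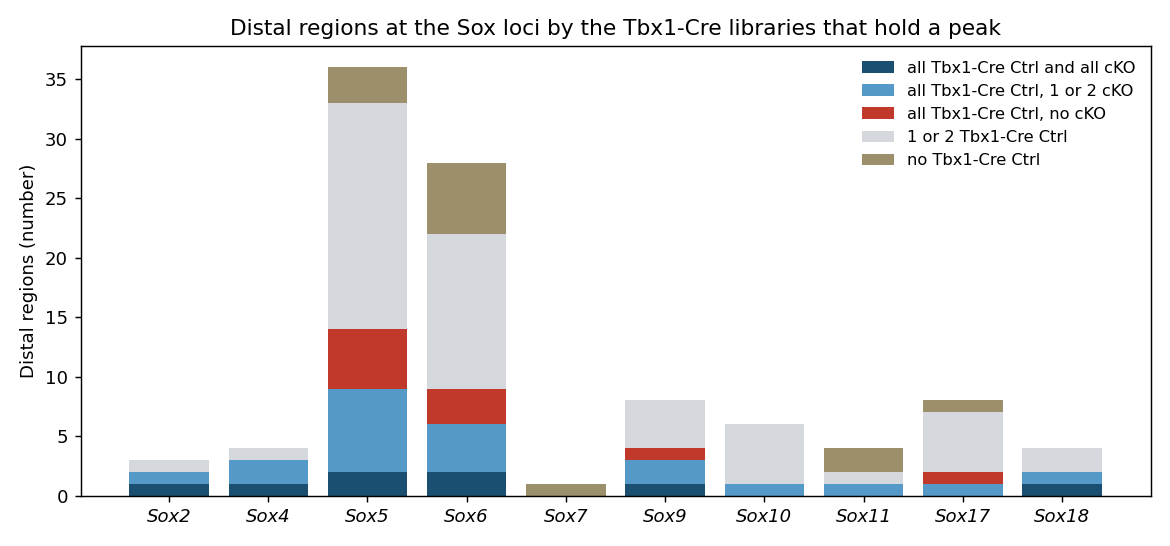
Number of distal regions at each Sox locus (vertical axis), after merging the peaks of all 9 lists, stacked by which of the 6 Tbx1-Cre libraries held a peak. Regions held by every Tbx1-Cre Ctrl and no cKO library (red) number 5 at Sox5, 3 at Sox6 and 1 each at Sox9 and Sox17, while regions held by 1 or 2 controls (grey) are the most frequent class at both long loci.

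The Mesp1-Cre libraries show at which of these sites a peak was also called in the mesodermal lineage. Their mean list held 59.7% of the distal peaks of the mean Tbx1-Cre Ctrl list. A site without a Mesp1-Cre peak is therefore not shown to be closed there. Of the 10 regions without a cKO peak, 1 had a peak in all 3 Mesp1-Cre Ctrl libraries and 7 in none, whereas of the 8 regions held by all cKO libraries 5 had a peak in all 3 Mesp1-Cre Ctrl libraries and none lacked one altogether. Over all distal regions of these kinds, 11.9% and 75.8% were in all 3 Mesp1-Cre lists, and 48.6% and 3.84% in none.

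Fewer distal peaks were also called in Mesp1-Cre Ctrl than in Tbx1-Cre Ctrl, a comparison that shares its control libraries with the one above. At Sox5, Sox6 and Sox9 every Mesp1-Cre Ctrl library was below every Tbx1-Cre Ctrl library, with differences of -14.7, -8 and -2.67 (p = 0.1 each, exact permutation test). The Sox6 difference was -4.83 without Mesp1-Cre Ctrl 2, which held 3 peaks there. These were 3 of the 10 loci, against 11.2% of the 18171 genes tested, and no locus was higher throughout, against 0.391%. Here too the shares are not matched for window length or peak number. The smallest adjusted value over all genes was 0.862 in the exact permutation test. Sox4 gave -1.67 (p = 0.2, exact permutation test), Sox10 -2 (p = 0.6), Sox18 -0.667 (p = 0.4), Sox11 -0.333 and Sox7 0.333 (p = 1 for both). Without Tbx1-Cre Ctrl 1 the difference was -0.333 at Sox10 and 0 at Sox11, and without Mesp1-Cre Ctrl 3 it was 0 at Sox7. The median difference was -1.83 over the 10 loci and -0.667 over all genes. Without Mesp1-Cre Ctrl 1, the longest list of its group, 6 loci were lower throughout, and without Tbx1-Cre Ctrl 1 it was 5. For these counts no share over all genes was formed.

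Because the lists differed in length, the counts were also scaled. With counts scaled to the total length of each list, 3 Sox loci, Sox5, Sox6 and Sox9, stayed lower in every cKO library, against 13.7% of genes, and none was higher, against 5.96%. Scaled to the distal peaks of each list, none was lower in every cKO library, against 7.95% of genes, and Sox2 and Sox4 were higher, against 14.9%. On that scale Sox5 held 6.66, 8.06 and 8.51 of every 10000 distal peaks in Tbx1-Cre Ctrl and 8.25, 5.98 and 4.19 in cKO, and Sox9 held 2.22, 1.83 and 2.29 against 2.06, 1.99 and 1.40. Sox4 held 0.951, 1.47 and 1.31 against 2.75, 1.99 and 2.79. Both distal peaks of cKO 3 at Sox4 lay in 1 merged region, so this order holds for peaks and not for regions. For Mesp1-Cre Ctrl, Sox5 and Sox6 stayed lower on the total scale, against 9.07% of genes, and none was higher, against 8.27%. On the distal scale Sox5 alone was lower, at 4.60, 5.10 and 4.50 of every 10000, against 6.21% of genes, and Sox18 alone higher, against 12.4%.

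**Figure D5:**
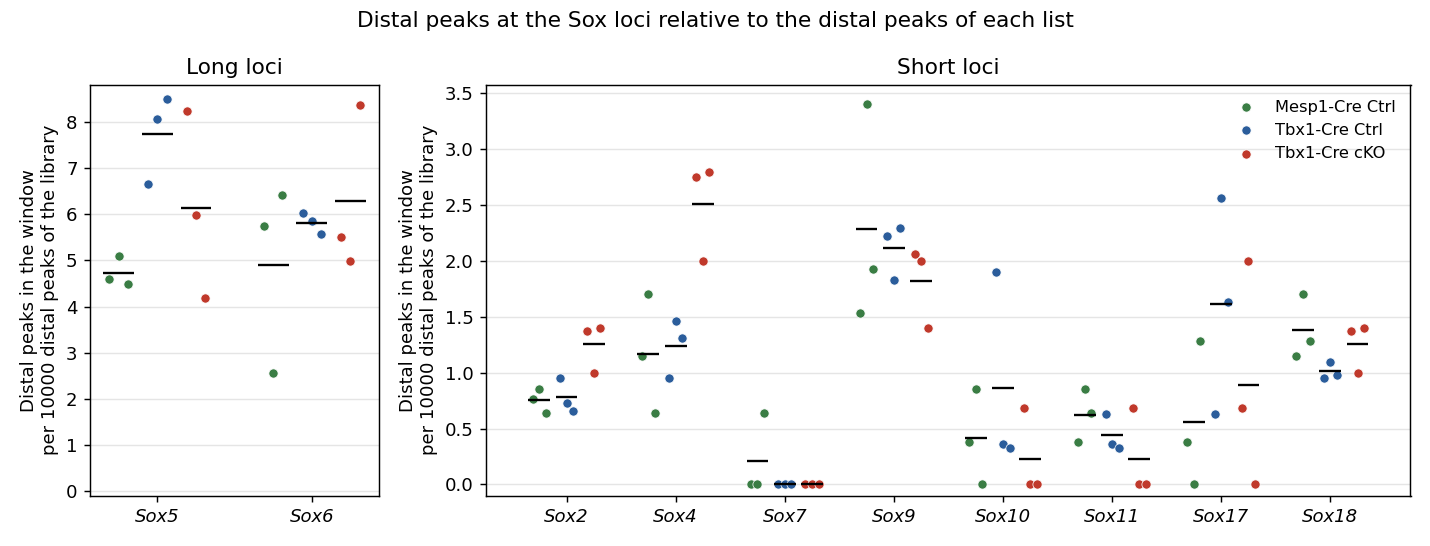
Distal peaks in each Sox window per 10000 distal peaks of the same library (vertical axis), for Sox5 and Sox6 on the left and the 8 short loci on the right; points are libraries, 1 to 3 from left to right, colours mark the groups, and bars are means. On this scale cKO and Tbx1-Cre Ctrl points overlap at Sox5, Sox6, Sox9 and Sox18. The cKO points lie above the Tbx1-Cre Ctrl points at Sox2 and Sox4, though at Sox4 both peaks of library 3 lie in 1 merged region. The Mesp1-Cre Ctrl points lie below the Tbx1-Cre Ctrl points at Sox5.

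Of the other Sox genes, 9 of the 10 listed were in the annotation used and 7 of these had a distal peak in a Tbx1-Cre library. Sox13, the remaining SoxD gene, had 8, 4 and 5 distal peaks in Tbx1-Cre Ctrl, 2, 2 and 3 in cKO and 3, 1 and 2 in Mesp1-Cre Ctrl, and both groups lay below the Tbx1-Cre controls (p = 0.1, exact permutation test). Sox14, a SoxB gene, had 1 in each Tbx1-Cre Ctrl library and none in cKO. Thus 2 of 7 were lower in every cKO library, against 25.6% of all genes tested, and 1 of 7 in every Mesp1-Cre Ctrl library, against 11.2%. None of the 7 was higher throughout in either comparison, against 0.141% and 0.391%. Sox3 and Sry had no distal peak in any library and were not tested.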

How the data were processed

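The deposited files hold 1 peak list per library, with a chromosome, start and end in bp and no score. Per the methods and the submitters' processing notes, the authors trimmed reads with cutadapt, aligned them to mm9 with Bowtie2 2.3.4.3, removed duplicates and mitochondrial reads, and called peaks per library with MACS2. Narrowest peaks were 199 bp in the Mesp1-Cre lists and 200 bp in the others, so list conventions may differ between these groups, and the 2 mitochondrial intervals of each Mesp1-Cre list were left out. Depth is unknown.

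Genes, TSS and sequence came from the NCBIM37 (mm9) reference and its GENCODE annotation; Sox1 was not analysed here, and 1 gene of a marker list is not reported here. Distal peaks per window were compared over libraries for every protein-coding gene with an exact two-sided permutation test (numpy 2.4.6, pandas 2.3.3, scipy 1.17.1) and Benjamini-Hochberg adjustment; non-overlap of groups was the call. Regions were peaks of all 9 lists merged at 1 bp overlap. Nothing states that libraries of a group came from separate litters, so p-values measure the spread between libraries. Embryos were pooled within a library. No 2 lists shared more than 13 identical intervals.

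Members, gene lists and tests were chosen with earlier results of these data known. All 10 members were named, and regions by class: at the own promoter, in every Tbx1-Cre Ctrl and no cKO library, in all 9, in every Mesp1-Cre and no Tbx1-Cre Ctrl, or in every cKO and no Tbx1-Cre Ctrl library, at most the 3 with the widest peaks per locus. Other regions in the text were chosen after their values were seen. The promoter comparison was added after the data were seen. Alternatives were window size, promoter limit, list trimming and scaling, left-out libraries and a replicate block. Scripts were tested on simulated data.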

Additional observations from a re-analysis of the deposited data

How the results depend on the processing

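The sign of the difference between Tbx1-Cre cKO and Ctrl at Sox5, Sox9 and Sox17 held under every alternative tried, but its size did not. From -16, -4.33 and -3.67 these differences shrank to -1.33, -0.333 and -0.667 with the 19772 widest peaks of each list. Scaled to the distal peaks of each list they were -3.24, -0.599 and -1.45 (p = 0.3, 0.4 and 0.5, exact permutation test). A p of 0.1 is the smallest the design allows. With a flank of 10 kb, the cKO difference at Sox11 was 0, and Mesp1-Cre Ctrl differences were 0.333 at Sox11 and 0 at Sox7 and Sox18. With 100 kb, Sox7 gave -0.667 in cKO and -0.333 in Mesp1-Cre Ctrl. With the 19772 widest peaks of each list, cKO differences were 1.33 at Sox4, 0 at Sox10 and 0.333 at Sox2 and Sox18, with 1 locus lower and 1 higher throughout and 2 regions held by all Tbx1-Cre Ctrl and no cKO lists. Mesp1-Cre differences were then 0.333 at Sox4 and 0 at Sox7, Sox10 and Sox18. The widest 75% gave 0 at Sox7. Scaled to list length, cKO differences were 0.982 at Sox4 and 0.132 at Sox2, and Mesp1-Cre differences 0.141 at Sox11 and 0.273 at Sox18. Scaled to the distal peaks of each list, a choice made after seeing the data, cKO differences were 2.56 at Sox4, 0.961 at Sox2, 0.946 at Sox6 and 0.495 at Sox18, with 0 loci lower and 2 higher throughout. Mesp1-Cre differences were 0.414 at Sox9, 0.435 at Sox11 and 0.876 at Sox18, with 1 locus lower and 1 higher. The cause of these turns was not tested, though trimming and scaling by construction set the lists to a common length or number of distal peaks.

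Leaving out 1 library at a time, own promoters with fewer covered bp throughout numbered 3 to 5 in cKO and 2 to 4 in Mesp1-Cre Ctrl, loci lower throughout numbered 4 to 8 in cKO and 3 to 6 in Mesp1-Cre Ctrl, and regions held by all Tbx1-Cre Ctrl and no cKO lists 10 to 20. These counts have no share over all genes or regions beside them. The Mesp1-Cre difference ranged from -0.5 to 0 at Sox11 and from 0 to 0.5 at Sox7. Of the other values under alternatives, 384 kept their direction or stayed close to the reported value.

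Libraries of different groups share only a replicate number. Correlations of their deviations were 0.185, -0.0160 and 0.107 for cKO and 0.144, 0.176 and -0.0623 for Mesp1-Cre Ctrl with Tbx1-Cre Ctrl. With the replicate block the differences were unchanged, 8 loci were lower in all 3 pairs in cKO and 5 in Mesp1-Cre Ctrl, own promoters were narrower in all 3 pairs at 5 and 6 loci, and the smallest p an exact sign-flip permutation allows is 0.25. The share of all genes with the same direction in all 3 pairs was not formed.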
